A study of Mus musculus with 28 samples.

Results

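The comparison described here set the hypothalamus of mice without functional leptin, ob/ob mice, against that of wild-type mice, in the RNA left in a lysate after the tagged ribosomes of leptin receptor cells had been pulled out. Its members were chosen by label and not by any measured value: all depleted libraries taken 10 h after treatment, 7 of the 28 libraries of the series. Genotype was tested over these 7 libraries with treatment as a stratum. All mice, controls included, carried LepRbeGFP-L10a, a reporter in which a ribosomal protein fused to eGFP is made in cells with the long leptin receptor isoform. The ob/ob mice were LepRbeGFP-L10a;Lepob/ob. Males and females of 10 to 13 weeks lost access to food when the lights came on and were injected at once, either with metreleptin, a recombinant leptin analogue, at 5 mg per kg into the peritoneum, or with vehicle. The vehicle is saline in the protocol and PBS in the sample labels. The wild-type group had 3 leptin libraries and 1 vehicle library, and the ob/ob group 1 leptin library and 2 vehicle libraries. Beside them stand the 7 bead libraries of the same lysates, which hold the RNA of the tagged ribosomes, and 7 depleted wild-type libraries of 3 h. Because the labels leave unsaid whether a lysate held 1 mouse or several, p-values measure only the spread between lysates, which may be technical.

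Leptin is a hormone of fat cells that reports energy stores to the brain. In the arcuate nucleus it restrains neurons that make the hunger peptides AgRP and NPY and stimulates neurons that make POMC, the precursor of a satiety peptide. Mice without leptin overeat, become obese and are known for high circulating corticosterone, the main glucocorticoid of rodents. Glucocorticoids act through a nuclear receptor that binds DNA and raises genes such as Fkbp5, Sgk1 and Tsc22d3. The RNA measured here came mostly from cells that lack the tagged receptor, together with RNA of receptor cells that was not on captured ribosomes.

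Total counts were 27527324 to 41804049 in the 4 wild-type libraries and 19649105 to 24434412 in the 3 ob/ob libraries. Sequencing run and genotype were the same split of the libraries, so a difference of genotype and a difference of run cannot be told apart in anything below. Lep itself, the mutated gene (GRCm38 chromosome 6, 29060220 to 29073877), had 1 count in the 7 libraries together and none in ob/ob, where 3 counts would be 0.123 to 0.153 CPM, and so gave no check of the genotype labels. Levels are CPM, counts per 1000000 scaled by TMM, a factor that evens out library composition. Hypothalamic transcripts were present in every library, with the summed CPM of 30 nucleus-specific factors at 436.2 to 471.5 in wild type and 348.9 to 479.5 in ob/ob. Transcripts of the neighbouring striatum stood apart in 1 library: the 22 striatal markers summed to 2842.8 CPM in the wild-type vehicle library, against 1283.6 to 1593.4 in the other wild-type and 1168.2 to 1507.8 in the ob/ob libraries. Pituitary hormone transcripts stood apart in the ob/ob leptin library, at a sum of 182.6 CPM against 23.9 to 31 in the other 6, with Gh at 129.1 and Prl at 20.4. Choroid plexus markers summed to 122.6 CPM in ob/ob vehicle replicate 1 and to 49.9 to 81.9 in the other 6 libraries. That replicate also had the lowest sum of the nucleus-specific factors, 348.9 CPM. Its 13 cortex and hippocampus markers summed to 1823.5 CPM, against 1250.3 to 1505.6 in the other 6 and at most 1603.4 in wild type of 3 h. Xist (5.29 to 22.7 CPM) and the Y-linked Ddx3y (28.5 to 49.8 CPM) were both present in all 7 libraries. Of 5 sex-linked genes tested, 2 were higher in all 3 ob/ob than in all 4 wild-type libraries, as were 10.8% of all genes. Over the 5 genes the log2 fold change of ob/ob over wild type spanned -1.27 to 0.32, and none passed the test given below. Whether the mix of sexes differed between the genotypes was not tested.

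**Figure D1:**
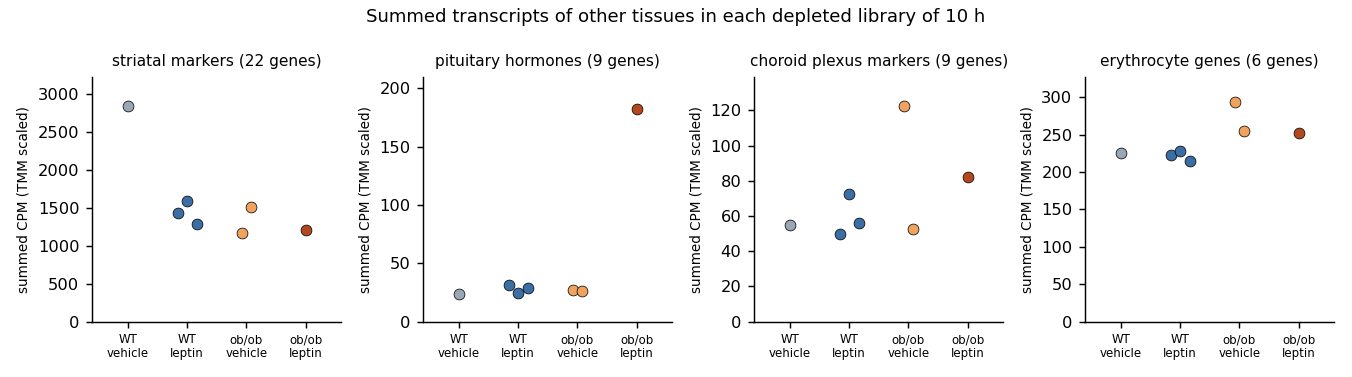
Summed CPM of marker genes of 4 other tissues (y axis, TMM scaled) in each depleted library of 10 h, grouped by genotype and treatment on the x axis; each point is 1 library and WT is wild type. The wild-type vehicle library is the high point for striatal markers (2842.8) and the ob/ob leptin library the high point for pituitary hormones (182.6).

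Of 18300 genes tested, 1002 differed between ob/ob and wild type (5.48%; edgeR quasi-likelihood F test with Benjamini-Hochberg adjustment over all genes, threshold 0.05). There were 425 higher (2.32%) and 577 lower (3.15%), with medians of 0.39 and -0.43 on the log2 scale, beside -0.0043 over all genes. Most were small: 293 of the higher and 400 of the lower genes moved by less than 1.5-fold, and 66 (0.361%) and 81 (0.443%) by 2-fold or more. All 3 ob/ob libraries lay above all 4 wild-type libraries for 1969 genes (10.8%) and below them for 2161 (11.8%). Against all 11 wild-type depleted libraries, those of 3 h included, 644 genes (3.52%) lay above and 740 (4.04%) below. Of the called genes, 183 of the 425 higher (43.1%) lay above and 289 of the 577 lower (50.1%) below them.

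The count rested largely on single libraries. Without the wild-type vehicle library, the one rich in striatal transcripts, 23 genes were higher and 30 lower; by construction this leaves 1 ob/ob against 3 wild-type leptin libraries. Without the ob/ob leptin library 72 were higher and 116 lower. That fit, again by construction, leaves 2 ob/ob vehicle libraries against the 1 wild-type vehicle library, the one rich in striatal transcripts. The total was 331 without wild-type leptin replicate 2, 380 without replicate 3 and 1940 without ob/ob vehicle replicate 2. With the striatal marker level as a covariate 4 genes were higher and 8 lower, among them Itgad, Fkbp5, Abhd12b and Rtraf-ps. For scale, wild type at 10 h differed from wild type at 3 h, another run and another clock time, in 1900 of 19042 genes (9.98%); that count was 345 without the wild-type vehicle library, and 773 and 1107 without wild-type leptin replicates 2 and 3.

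Among feeding neuropeptides, 4 of 25 tested transcripts were higher in ob/ob and 1 was lower, beside 2.32% and 3.15% of all genes. Their median was 0.022 beside -0.0043 over all genes. Without the wild-type vehicle library 3 were higher (Agrp, Npy and Pomc) and none lower, and without wild-type leptin replicate 2 or the ob/ob leptin library 2 were higher. The 3 largest rises were in Agrp, Npy and Avp, each of which lay above all 11 wild-type libraries, as did 3.52% of all genes. Agrp codes for agouti-related peptide, an antagonist of melanocortin receptors (ENSMUSG00000005705; chromosome 8, 105566698 to 105637393). Its level was 3.06, 3.35 and 4.68 CPM in wild-type leptin, 3.12 in wild-type vehicle, 12.7 and 18.3 in ob/ob vehicle and 12.6 in ob/ob leptin libraries. The ob/ob libraries were all high and the groups did not overlap. Agrp was 3.97-fold higher (log2 1.99, SE 0.21, adjusted p = 0.00249), and passed in the leptin stratum alone (1.75, adjusted p = 0.0409) and in the vehicle stratum alone (2.31, adjusted p = 0.0149). The same lysates held far more Agrp on captured ribosomes, 116 to 158.5 CPM in wild-type and 528.1 to 717.2 in ob/ob beads. The rise was of like size in both fractions, with a difference of -0.055 (SE 0.155, adjusted p = 0.942); how much of the depleted signal was RNA of receptor cells was not tested.

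Npy, the peptide made by the same neurons as Agrp (chromosome 6, 49822710 to 49829507), was at 17.4, 19.6 and 20.5 CPM in wild-type leptin, 23.2 in wild-type vehicle, 49.8 and 66 in ob/ob vehicle and 42.4 in ob/ob leptin libraries. No wild-type library of either time exceeded 23.8 CPM. The rise was 2.33-fold (log2 1.22, SE 0.11, adjusted p = 0.000557), beside 1.65 in beads. Agrp and Npy stayed called without the wild-type vehicle library (1.74 and 1.14) and against the wild-type libraries of 3 h (2.10 and 1.31), and with the striatal covariate the values were about as large (1.94 and 1.33) but, with larger SEs (0.342 and 0.176), did not pass (adjusted p = 0.139 and 0.0601).

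Avp codes for vasopressin, the antidiuretic hormone of the supraoptic and paraventricular nuclei, whose neurons also respond to salt and stress. Its level was 86.8, 99 and 111.8 CPM in wild-type leptin, 135.7 in wild-type vehicle, 230.6 and 354.7 in ob/ob vehicle and 231.6 in ob/ob leptin libraries. The highest of the 11 wild-type libraries, of 3 h, was at 190.6 CPM. Avp was 2.24-fold higher (log2 1.16, SE 0.174, adjusted p = 0.0229). Oxt, which codes for oxytocin, the companion hormone of the same nuclei, was at 0.022 (adjusted p = 0.952). Vgf, a secretory granule protein gene, was 1.37-fold higher (0.46, SE 0.101, adjusted p = 0.0337), at 175.5 to 225.5 CPM in ob/ob and 104.9 to 156.1 in wild type of 10 h, but overlapped the wild-type libraries of 3 h. Tac1, the substance P precursor, was the member that fell (-0.61, SE 0.104, adjusted p = 0.0141). It is also a striatal marker: the wild-type vehicle library held 92.3 CPM, and the other wild-type libraries, at 54.3 to 59.9, overlapped ob/ob at 42.5 to 59.6.

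**Figure D2:**
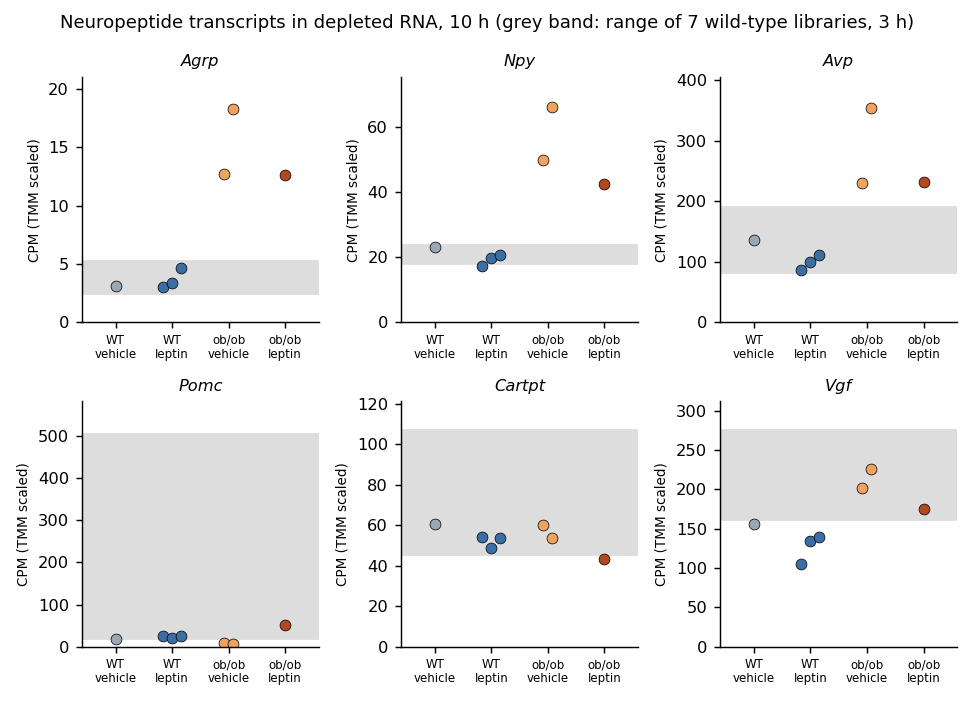
TMM-scaled CPM (y axis) of 6 peptide transcripts in each depleted library of 10 h by genotype and treatment (x axis; 1 point per library, WT is wild type); the grey band spans the 7 wild-type depleted libraries of 3 h. For Agrp, Npy and Avp the 3 ob/ob points lie above the wild-type points and the band, while for Pomc the ob/ob vehicle points lie below and the ob/ob leptin point above the wild-type points of 10 h.

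Pomc (chromosome 12, 3954951 to 3960642) was the 1 gene whose genotype difference differed between the strata (1 of 18300, 0.00546%; 893 genes, 4.88%, at an unadjusted p under 0.05, and 7 called with DESeq2). The count was 33 without ob/ob vehicle replicate 1, 9 without ob/ob vehicle replicate 2, and 2 without wild-type leptin replicate 1 or 3. Pomc was at 7.9 and 6.56 CPM in ob/ob vehicle against 17.4 in wild-type vehicle, a log2 difference of -1.28 (adjusted p = 0.00921). In the leptin stratum it was at 50.9 CPM in ob/ob against 24.2, 21 and 25.4 in wild type, a difference of 1.11 (adjusted p = 0.0122). The leptin minus vehicle difference was 2.39 (SE 0.195, adjusted p = 0.00481). Pomc is also a major transcript of the pituitary, and the ob/ob leptin library is the one with Gh at 129.1 CPM. Among the wild-type libraries of 3 h the pituitary sum reached 3282.3 CPM and Pomc 505. The part of pituitary tissue in this difference was not tested. In the bead libraries Pomc was lower in ob/ob (-2.83, adjusted p = 0.0006), at 59 to 161.1 CPM against 703.4 to 1184.1. Cartpt, a satiety peptide made with Pomc, was at 43.4 to 60.2 CPM in ob/ob and 48.8 to 60.4 in wild-type depleted libraries (-0.19, adjusted p = 0.153). Nts, the neurotensin gene, was the 1 feeding neuropeptide whose genotype difference departed between depleted and bead RNA, beside 17 of 18856 genes (0.0902%). Its log2 difference of ob/ob from wild type was 1.36 above that in beads. Nts did not pass in depleted RNA, and ob/ob beads held less Nts than wild-type beads (levels given below).

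Receptors and leptin signalling genes held no call against wild type of 10 h. Of 25 receptors for feeding peptides none passed with edgeR, DESeq2 or limma voom, and 6 had an unadjusted p under 0.05, beside 23.8% of all genes. Of 21 genes of JAK-STAT signalling and its feedback none passed with any of these tools, and 5 had an unadjusted p under 0.05. Lepr, the leptin receptor gene, was at 1.98, 2.42 and 1.92 CPM in wild-type leptin, 2.25 in wild-type vehicle, 3.32 and 3.16 in ob/ob vehicle and 2.52 in ob/ob leptin libraries. The groups did not overlap, but the difference did not pass (0.39, SE 0.17, adjusted p = 0.193). Socs3, the feedback inhibitor that leptin induces, was at -0.41 (SE 0.182, adjusted p = 0.2) and Stat3 at 0.04 (adjusted p = 0.749). Against the wild-type libraries of 3 h Lepr was higher (0.68, adjusted p = 0.0226) and Socs3 lower (-0.96, adjusted p = 0.0106); there 2 of the 25 receptors were higher and 1 of the 21 JAK-STAT genes lower. Without ob/ob vehicle replicate 2, 1 receptor was higher and 2 were lower, and 1 JAK-STAT gene was lower.

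Glucocorticoid response genes were the list with the most calls. The lists were chosen with earlier results of these data known, so this count is not an independent test. Of 19 tested, 12 were higher in ob/ob and none lower, beside 2.32% and 3.15% of all genes, with a median of 0.52 beside -0.0043. DESeq2 and limma voom each called 13. Fkbp5, a co-chaperone that dampens the glucocorticoid receptor (chromosome 17, 28399094 to 28517527), was at 46.7, 47.5 and 47.2 CPM in wild-type leptin, 50.2 in wild-type vehicle, 108.1 and 112.3 in ob/ob vehicle and 85.1 in ob/ob leptin libraries. The lowest ob/ob library exceeded the highest of the 11 wild-type libraries, at 64.4 CPM. Fkbp5 was 1.97-fold higher (log2 0.98, SE 0.0679, adjusted p = 9.13e-05) and kept its call under each of the 19 alternatives run.

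Sgk1, a kinase that regulates ion transport (chromosome 10, 21882184 to 21999903), was at 107.7, 114 and 90.3 CPM in wild-type leptin, 98.7 in wild-type vehicle, 243.3 and 217.1 in ob/ob vehicle and 216.2 in ob/ob leptin libraries, a rise of 1.13 (SE 0.0885, adjusted p = 0.000253). Its wild-type libraries of 3 h reached 181.4 CPM, below every ob/ob library. Cdkn1a, which codes for the cell cycle inhibitor p21 (chromosome 17, 29090976 to 29100727), was at 14.3, 13.3 and 11.6 CPM in wild-type leptin, 13.1 in wild-type vehicle, 49.3 and 50.7 in ob/ob vehicle and 32.5 in ob/ob leptin libraries. It was 3.03-fold higher (1.60, SE 0.129, adjusted p = 0.000361) with no overlap at 10 h, but its wild-type libraries of 3 h, at 20.5 to 44.1 CPM, reached into the ob/ob range. Plin4, a lipid droplet protein gene, was 2.99-fold higher (1.58, SE 0.21, adjusted p = 0.00803), at 17.6 to 24.3 CPM in ob/ob against 5.27 to 8.51, with 7.24 to 21.2 CPM in wild type at 3 h.

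The other 8 calls were smaller. The sulfotransferase gene Sult1a1 rose by 0.93, the transcription factor genes Zbtb16 and Hif3a by 0.75 and 0.67, and Ddit4, an inhibitor of mTOR signalling, by 0.73. The metallothionein gene Mt1 rose by 0.52, the NF-kB inhibitor gene Nfkbia by 0.45, the clock gene Per1 by 0.43 and Tsc22d3, which codes for GILZ, by 0.27 (adjusted p = 0.0394, the largest of the 12). Without the wild-type vehicle library Mt1 was at 0.34 and Tsc22d3 at 0.16, and neither passed. Mt2 missed the threshold (0.52, adjusted p = 0.055) but passed in 9 of 19 alternatives, DESeq2 and limma voom among them, with values of 0.13 to 0.84 over the 19. Not passed either were Errfi1 (0.21), Klf9 (0.079), Angptl4 (0.24), Pdk4 (-0.015) and the receptor genes Nr3c1 (-0.11) and Nr3c2 (0.085).

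Calls were made in each stratum and in both fractions. In the leptin stratum, which does not use the striatum-rich library, 4 of the 19 genes passed (Fkbp5, Cdkn1a, Sgk1, Ddit4) with a median of 0.34, beside 49 of 18300 genes in either direction (0.268%). The 49 became 4, 10 and 17 without wild-type leptin replicates 1, 2 and 3, and 577 and 518 without ob/ob vehicle replicates 1 and 2. In the vehicle stratum 10 passed with a median of 0.66, beside 196 genes (1.07%). The 196 became 15, 103 and 96 without wild-type leptin replicates 1, 2 and 3, and 668 and 1531 without ob/ob vehicle replicates 1 and 2. In the bead libraries 7 of the 19 were higher, with a median of 0.68, beside 160 of 17221 genes called (0.929%), 68 of them higher (0.395%).

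Glucocorticoid response genes also differed with time in wild type: 6 of the 19 were lower at 10 h than at 3 h and none higher, beside 980 of all genes lower (5.15%), with a median of -0.17; this comparison shares its 4 wild-type libraries of 10 h with the genotype comparison. Set against the 7 wild-type libraries of 3 h instead, 3 of the 19 were higher in ob/ob (Fkbp5, Per1 and Sult1a1), with a median of 0.19. Sgk1 (0.84, adjusted p = 0.0966) and Cdkn1a (0.68, adjusted p = 0.0841) then missed the threshold. Of the 19, 4 were higher without the wild-type vehicle library, 1 with the striatal covariate and 10 without the ob/ob leptin library.

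**Figure D3:**
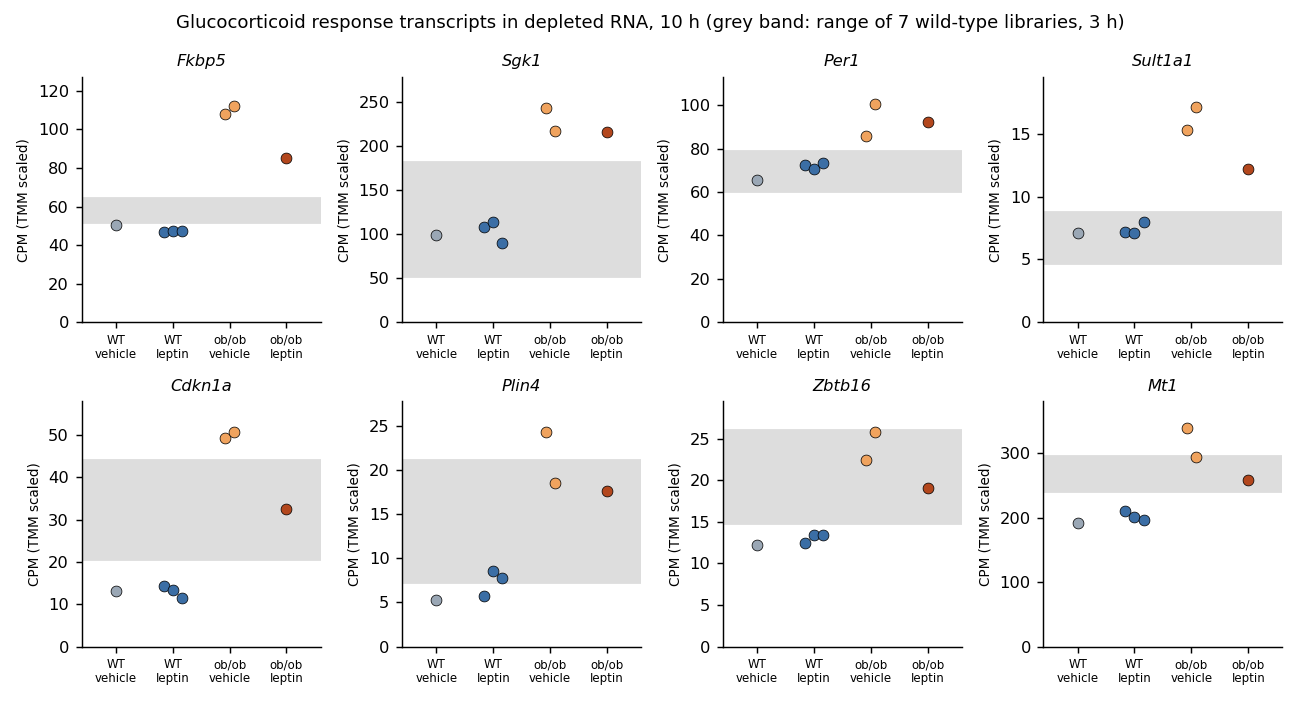
TMM-scaled CPM (y axis) of 8 glucocorticoid response transcripts in each depleted library of 10 h by genotype and treatment (x axis; 1 point per library, WT is wild type); the grey band spans the 7 wild-type depleted libraries of 3 h. In the upper row (Fkbp5, Sgk1, Per1, Sult1a1) all 3 ob/ob points lie above the band, and in the lower row the band reaches into the ob/ob points.

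As 12 members were higher, their promoters were read for the palindrome that the glucocorticoid receptor binds. Windows were 250 bases before to 50 after each RefSeq gene start (RefSeq, GRCm38.p6), and 11 of the 12 genes had at least 1 window, 20 in all. The core searched was GNACA, any 3 bases, then TGTNC, and the full motif AGAACA, any 3 bases, then TGTTCT; each is its own reverse complement, so 1 strand covers both, and the full motif contains the core. The core was found in 156 of 32851 windows (0.475%), in 7 of the 415 windows of genes called higher (1.69%) and in 2 of the 20 windows of the list, those of Mt1 and Sgk1. The full motif was in 3 windows of 32851, 1 of them that of Sgk1. The bases before both starts are printed because they hold the core within the window of a gene that rose; capitals mark it, 81 bases before the start of Mt1 (chr8:94178839-94179088, plus strand) and 175 before that of Sgk1 (chr10:21993640-21993889, plus strand, at a start inside the longer gene model). The 7 windows include the 2 of the list, which was drawn up as glucocorticoid response genes, and the 32851 are not limited to tested genes. These shares are therefore no test of a cause, and action of the receptor on these genes was not tested. A match describes these letters and not a bound site.
Mt1: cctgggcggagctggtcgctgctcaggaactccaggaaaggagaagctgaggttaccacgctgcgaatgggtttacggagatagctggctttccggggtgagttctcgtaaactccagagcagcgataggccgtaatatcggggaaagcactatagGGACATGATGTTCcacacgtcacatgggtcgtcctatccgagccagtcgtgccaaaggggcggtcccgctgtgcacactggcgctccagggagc
Sgk1: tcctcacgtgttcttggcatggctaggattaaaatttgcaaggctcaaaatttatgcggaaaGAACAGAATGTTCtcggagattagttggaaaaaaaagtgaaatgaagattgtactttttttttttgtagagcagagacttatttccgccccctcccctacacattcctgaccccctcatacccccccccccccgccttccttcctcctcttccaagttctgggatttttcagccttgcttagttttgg

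Among genes chosen by size alone (the 12 largest changes in each direction with a mean of at least 1 CPM, no overlap at 10 h and an established symbol, out of 342 and 407 that qualified), Ccl17 rose most. Ccl17 codes for a chemokine that attracts T cells (chromosome 8, 94810453 to 94812036), and was at 0.791, 0.437 and 0.639 CPM in wild-type leptin, 0.45 in wild-type vehicle, 3.73 and 2.43 in ob/ob vehicle and 2.87 in ob/ob leptin libraries. All ob/ob libraries were above the 11 wild-type libraries, which reached 1.83 CPM. The rise was 5.29-fold (log2 2.40, SE 0.27, adjusted p = 0.00143), 1.23 on the log2 scale against the wild-type libraries of 3 h, and 2.23 in beads. Itgad, an integrin alpha chain gene of leukocytes (chromosome 7, 128154376 to 128223816), was at 1.26, 1.31 and 1.18 CPM in wild-type leptin, 1.25 in wild-type vehicle, 4.43 and 4.57 in ob/ob vehicle and 4.64 in ob/ob leptin libraries. It was 3.64-fold higher (1.86, SE 0.152, adjusted p = 0.000233), passed under each of the 19 alternatives and was 2.36 higher in beads. Of 16 microglia and complement genes 1 was called, lower, beside 3.15% of all genes, and the median was -0.21.

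Slc2a4 codes for GLUT4, the insulin-responsive glucose transporter (chromosome 11, 69942539 to 69948188). It was at 0.899, 1.05 and 1.25 CPM in wild-type leptin, 0.9 in wild-type vehicle, 3.27 and 2.47 in ob/ob vehicle and 2.98 in ob/ob leptin libraries, above every wild-type library of both times. The rise was 2.89-fold (1.53, SE 0.206, adjusted p = 0.00381). Wnt10b, a secreted Wnt ligand gene, rose by 1.63 (adjusted p = 0.0201) from 0.45 to 0.612 CPM in wild type to 1.31 to 2.55 in ob/ob. Wfikkn2, which codes for a secreted antagonist of myostatin, rose by 1.35 (adjusted p = 0.0322) but overlapped the wild-type libraries of 3 h. Wfikkn2 lost its call in 7 of 18 alternatives and was at 0.23 against the libraries of 3 h. Wnt10b lost its call in 3 of 18 alternatives and Slc2a4 in 2 of 19. Agrp, Cdkn1a and Plin4 also belong to these 12. The remaining 4 are processed pseudogenes (Ndufs5-ps, Rps15a-ps8, Rps13-ps1 and Mrpl48-ps, 1.57 to 1.97), whose reads can be shared with near-identical copies and whose values are uncertain.

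Of the 12 largest falls, 4 were also such pseudogenes (Atp6v0c-ps2, Rnps1-ps, Gpi-ps and Rtraf-ps, -4.64 to -2.05) and are uncertain for the same reason. Abhd12b, an abhydrolase family gene (chromosome 12, 70154142 to 70183887), was at 18.4, 17.5 and 20.1 CPM in wild-type leptin, 17 in wild-type vehicle, 3.22 and 3.12 in ob/ob vehicle and 4.49 in ob/ob leptin libraries. No wild-type library of either time was under 13.7 CPM. Abhd12b was 4.77-fold lower (log2 -2.26, SE 0.116, adjusted p = 6.82e-06), the smallest adjusted p among the genes named here, and kept its call under all 19 alternatives; in beads it was scarce, at 0.675 to 2.72 CPM, and did not pass. Prss41, a serine protease gene, was 12.8-fold lower (-3.68, SE 0.39, adjusted p = 0.000939), at 0.101 to 0.302 CPM in ob/ob and 1.02 to 2.83 in wild type.

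Npvf codes for the RF-amide peptides that restrain gonadotropin release (chromosome 6, 50650672 to 50654439). It was at 3.16, 3.35 and 5.13 CPM in wild-type leptin, 3.28 in wild-type vehicle, 1.56 and 1.01 in ob/ob vehicle and 1.26 in ob/ob leptin libraries. All 3 ob/ob libraries lay below the 11 wild-type libraries, and the fall was 2.82-fold (-1.50, SE 0.259, adjusted p = 0.012). It was the only call among 11 genes of the reproductive axis tested (median -0.19), beside 5.48% of all genes called. Fcrls, a microglial Fc receptor-like gene, fell by 1.62 on the log2 scale (adjusted p = 0.00308), and Aif1, the microglial gene that codes for IBA1, by 0.83 (adjusted p = 0.0182), both below all 11 wild-type libraries. The zinc transporter gene Slc39a2 (-1.56, adjusted p = 0.043) lost its call in 10 of 19 alternatives, limma voom among them, and was at -0.98 without the wild-type vehicle library and -0.64 with the striatal covariate. The mitotic gene Cdca8 (-1.35), Pkd2l1, which codes for a channel of neurons that contact the cerebrospinal fluid (-1.32), and Gapdhs, a germ-cell form of the glycolytic enzyme GAPDH (-1.23), complete the 12. Cdca8, Pkd2l1, Gapdhs and Npvf each lost the call in 3 of 19 alternatives. The kit did not mark the strand, so genes that overlap another on the opposite strand in the annotation (such as Agrp with Ctcf, Itgad with Cox6a2, Plin4 with Hdgfl2, Prss41 with Prss32) may hold reads of their neighbour.

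Erythrocyte transcripts were higher in ob/ob: 5 of 6 passed, beside 2.32% of all genes called higher, with a median of 1.02. All 5 lay above the 11 wild-type libraries, as did 3.52% of all genes. Hbb-bs, a beta-globin gene, was at 17.5, 23.4 and 16.9 CPM in wild-type leptin, 16.8 in wild-type vehicle, 39.5 and 38.9 in ob/ob vehicle and 38 in ob/ob leptin libraries, a rise of 1.09 (SE 0.121, adjusted p = 0.00249). Hba-a2 (1.25), Hba-a1 (1.13) and Hbb-bt (0.86), which are near-identical in pairs with each other or with Hbb-bs and therefore uncertain one by one, and Alas2, the heme synthesis enzyme gene of red cells (0.95), rose too. None of the 6 was called without the wild-type vehicle library, where the median was 0.97 and 5 had an unadjusted p under 0.05; without the ob/ob leptin library 3 were called. Against the wild-type libraries of 3 h 4 were called and the median was 0.51. In bulk tissue more cells of a type and more RNA per cell cannot be told apart, and blood left in the tissue was not measured otherwise.

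Striatal markers were the list with the lowest median, -0.91. Of 22, 6 were lower (Tac1, Actn2, Rasgrp2, Bcl11b, Pde1b and Drd2), beside 3.15% of all genes. All 6 were highest in the wild-type vehicle library; Bcl11b, for example, was at 75.3 CPM there, 23.7 to 36.9 in wild-type leptin and 19.1 to 39.2 in ob/ob libraries. Without that library none of the 22 passed by edgeR (4 at an unadjusted p under 0.05) and the median was -0.38. The count was 2 without wild-type leptin replicate 2, and 3 without wild-type leptin replicate 1 or either ob/ob vehicle replicate.

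**Figure D4:**
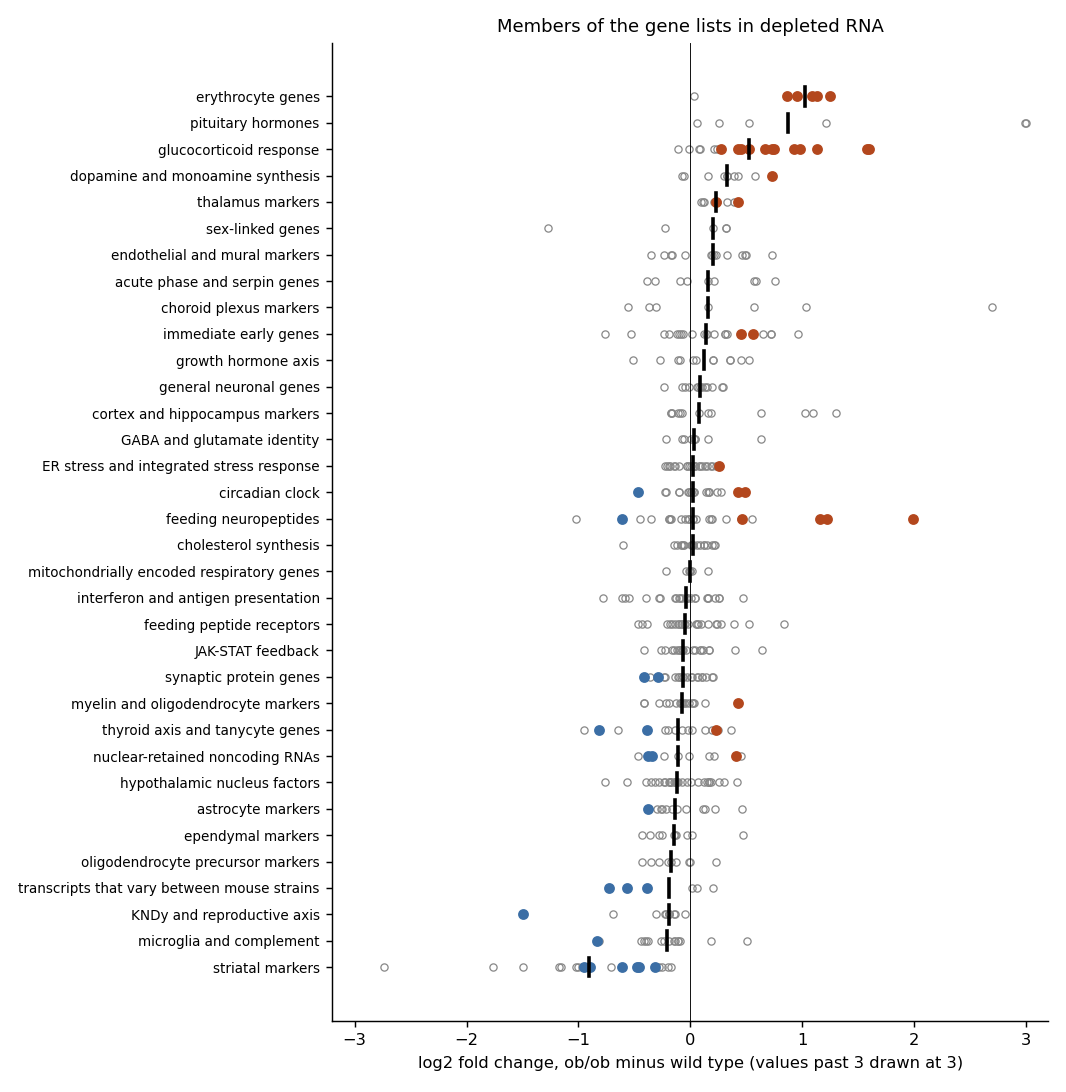
Log2 fold change of ob/ob over wild type (x axis) of each tested member of the 34 gene lists (y axis, ordered by median) in depleted RNA; filled points passed the test (red higher, blue lower), open points did not, and black bars are list medians. Erythrocyte (1.02) and glucocorticoid genes (0.52) sit to the right with filled points, striatal markers (-0.91) to the left.

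The other lists held at most 3 calls each, beside 2.32% of all genes called higher and 3.15% lower. Among 20 clock genes Cry1 (0.49, adjusted p = 0.00778) and Per1 were higher and Dbp lower (-0.47, adjusted p = 0.00249); the groups did not overlap at 10 h for Dbp, at 64.2 to 70.3 CPM in ob/ob against 87.5 to 91.9, yet wild type at 3 h spanned 62.7 to 86.4. The immediate early genes Nr4a1 (0.45) and Dusp1 (0.56) were higher, 2 of 22, and overlapped wild type at 3 h. The thyroid hormone receptor genes moved apart, with Thrb lower (-0.39, adjusted p = 0.00803) and Thra higher (0.23, adjusted p = 0.0432); Slc17a8, a glutamate transporter gene, was the other call among 16 thyroid axis and tanycyte genes (-0.82). Slc6a3, the dopamine transporter gene, was higher (0.73, adjusted p = 0.0421), 1 of 10 genes of monoamine synthesis. Of 10 thalamus markers Zic1 (0.23) and Gbx2 (0.43) were higher, with overlapping groups.

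The glial and synaptic lists held few calls and the noncoding RNAs 3 of 11, beside 2.32% of all genes called higher and 3.15% lower. Single calls in lists of this size are near those shares. The myelin gene Mobp was higher (0.43, adjusted p = 0.0056), 1 of 17, at 701 to 875.1 CPM in ob/ob against 583 to 621.1, while Mbp was at -0.013 (adjusted p = 0.941). The astrocyte water channel gene Aqp4 was lower (-0.38, adjusted p = 0.0365), 1 of 12, and Gfap was at 0.22 (adjusted p = 0.34). The synaptic genes Shank3 (-0.41) and Unc13a (-0.29) were lower, 2 of 21. The growth arrest RNA Gas5 was higher (0.41) and the noncoding RNAs Snhg11 (-0.38) and Meg3 (-0.34) lower, 3 of 11. Of the 11, 9 had an unadjusted p under 0.05, beside 23.8% of all genes, DESeq2 called 5, and 4 values were positive. The list summed to 6567.7 to 7633.1 CPM in ob/ob and 7977.3 to 8619.7 in wild type of 10 h, but wild type of 3 h spanned 6967.1 to 9418.0. Its median was -0.11, and -0.1 without the wild-type vehicle library.

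In 15 further lists no member passed with edgeR or limma voom. Counts at an unadjusted p under 0.05, beside 23.8% of all genes, were 5 of 12 for the growth hormone axis, 4 of 20 for cholesterol synthesis, 4 of 25 for interferon and antigen presentation, 2 of 9 for oligodendrocyte precursors, 2 of 10 for ependymal cells and 2 of 6 for pituitary hormones. They were 1 of 13 for cortex and hippocampus, 3 of 30 for hypothalamic nucleus factors, 0 of 9 for GABA and glutamate identity, 1 of 7 for mitochondrially encoded genes and 3 of 5 for sex-linked genes. DESeq2 called none in these 11 lists and 1 in each of 4 others, in which 5 of 14 endothelial and mural, 4 of 7 choroid plexus, 3 of 13 general neuronal and 3 of 9 acute phase and serpin genes had an unadjusted p under 0.05. Among the last, Serpina3n, an astrocyte protease inhibitor gene, was at -0.027 (adjusted p = 0.962). Timp1, another leptin-responsive gene of receptor cells, had 4 to 26 counts a library and was not tested. Of 24 ER stress genes 1, Herpud1, was higher (0.26, adjusted p = 0.028), beside 2.32% of all genes.

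Of 6 transcripts known to differ between mouse strains, 3 were lower, beside 3.15% of all genes: Wdfy1 (-0.73, adjusted p = 0.000459), Btaf1 (-0.57) and Ide (-0.39). Wdfy1 was at 46.5 to 53 CPM in ob/ob and 79.4 to 86.4 in wild type of 10 h, but wild type of 3 h was at 41 to 58.3, level with ob/ob. Within 10 Mb on either side of Lep 5 of 111 genes were called (4.5%, beside 5.48% of all genes), all lower. Among these 5 was the pseudogene Atp6v0c-ps2, the largest fall named above, whose values are uncertain. No strain of the mice is given in the sources used here.

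Calls also followed transcript length. The median longest transcript was 2625 bases for genes called higher, 4131 for genes called lower and 3084 over all genes. The tested genes were ordered by length and split into 10 bins of equal size. In the bin of the shortest genes 3.01% were called higher and 1.53% lower, and in the bin of the longest 0.821% and 7.11%. The median log2 fold change fell from 0.062 to -0.071 between these bins. Wild type at 10 h against 3 h, which shares the 4 wild-type libraries, ran the other way, from -0.039 to 0.05. With the trend over length and GC content removed, 519 genes were called higher and 546 lower.

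**Figure D5:**
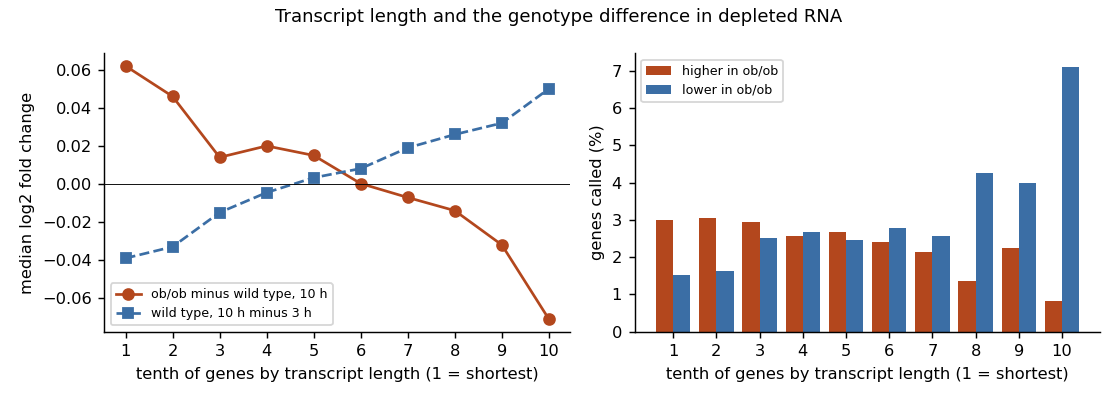
Left, median log2 fold change (y axis) in 10 bins of the tested genes ordered by transcript length (x axis) for ob/ob over wild type at 10 h (red) and for wild type at 10 h over 3 h (blue, sharing the wild-type libraries of 10 h); right, percent of genes called higher (red) or lower (blue) in ob/ob in each bin. The bin of shortest genes holds more higher than lower calls (3.01% and 1.53%) and the longest the reverse (0.821% and 7.11%).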

How the data were processed

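Hypothalamic RNA of 7 depleted libraries of 10 h was analysed. Per the labels' protocols, poly(A)-selected libraries came from a strandless kit and were read as single ends. STAR 2.7.6a and GRCm38.p6 are named per the submitters' processing notes. The table deposited by the authors holds raw counts of reads per gene for 55487 genes. Neither counting program nor annotation release was given in the sources used here. Sequencing runs came from a second deposited table.

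Counts were tested in R 4.3.3 with edgeR 4.0.16 (TMM scaling, robust quasi-likelihood F test, two-sided, Benjamini-Hochberg adjustment over all genes tested, threshold 0.05), on genes that reached 10 counts in 3 or more libraries. The model had genotype and treatment (4 residual degrees of freedom), or 1 coefficient per group for the strata, where a lone library is assumed to vary like the other groups; the bead and depleted comparison used the lysate as a block. DESeq2 1.42.0, limma voom (limma 3.58.1), other scalings, filters, covariates and left-out libraries were alternatives. Adjusted p-values are edgeR's unless another tool is named. The code was tested on simulated data. Positions came from a GRCm38 annotation that held 55227 of the gene IDs. Named genes were the 12 largest changes per direction under the conditions given in the text, 13 genes fixed by name, up to 4 members of smallest p per list, and genes named because a count in the text was small. The values of 1 list member are not reported here, though it is counted in its list. The members, the 34 gene lists and the tests were chosen with earlier results of these data known. The CPM given for 3 counts of Lep covers counting error only, while SEs also hold the spread between libraries.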

Additional observations from a re-analysis of the deposited data

Results flagged for a closer look

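The genotype difference of Pomc differed between the leptin and the vehicle stratum by 2.39 (SE 0.195, adjusted p = 0.00481, edgeR quasi-likelihood test of the difference itself): Pomc was higher in the ob/ob leptin library and lower in both ob/ob vehicle libraries than in their wild-type counterparts. The ob/ob leptin library is also the one with pituitary hormone transcripts, whose part in this was not tested.

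The genotype difference departed between depleted and bead RNA of the same lysates in 17 of 18856 genes (0.0902%), 14 with a higher value in depleted RNA and 3 with a lower one. The 5 with the smallest p were Nts (1.36, SE 0.126, adjusted p = 0.00154), Plagl1 (1.06, SE 0.1, adjusted p = 0.00154), Tmem176b (0.98, SE 0.114, adjusted p = 0.00743), Tmem176a (1.06, SE 0.122, adjusted p = 0.00743) and Atg7 (1.05, SE 0.141, adjusted p = 0.0251). None of these 5 passed in depleted RNA. Nts, which codes for neurotensin, was at 14.2 to 21.2 CPM in ob/ob and 16.9 to 25.2 in wild-type depleted libraries, and at 49.8 to 56.4 in ob/ob and 158.5 to 196 in wild-type beads. Slc39a2 went the other way (-1.17, SE 0.177, adjusted p = 0.0367): it was lower in ob/ob depleted RNA, a call lost in 10 of 19 alternatives, and in beads the groups, at 3.27 to 3.98 and 2.02 to 6.85 CPM, overlapped. The 17 became 1 without the wild-type vehicle lysate, 2 without the ob/ob leptin lysate, 4 and 6 without wild-type leptin lysates 1 and 2, 53 without ob/ob vehicle lysate 1 and 59 without wild-type leptin lysate 3.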

How the results depend on the processing

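The 1002 calls became 2260 with no filter, 12 with the striatal covariate, 1736 with the wild-type libraries of 3 h in place of those of 10 h (477 of the 1002 kept), and 53 to 1940 when 1 library was left out; with the other alternatives but the replicate block the total was 916 to 1128. The 3 h libraries, the length and GC correction, the strata with a library left out and the fit without the lysate block were chosen after seeing the data. Replicate number 1 was shared by 1 library of each genotype and treatment group. Number 2 was shared by a wild-type leptin and an ob/ob vehicle library. Deviations from the group mean were compared between these 2 groups only, with r = 0.0289 for number 1 and 0.0536 for number 2. Groups of 1 library have no such deviation, so whether same-numbered libraries belong together could not be decided. With the replicate block 377 genes were called (151 higher, 226 lower). Of 40 named genes or list members called, 28 lost the call without the wild-type vehicle library, 36 with the striatal covariate, 13 without the ob/ob leptin library and 14 with the 3 h libraries, where 1 more changed sign; at most 8 lost it in any other alternative. With the striatal covariate none changed sign, 14 of the 40 values were as large or larger (Npvf -2.14, Hba-a2 1.42) and 3 were smaller by over 1.5 times (Slc39a2, Mt1 and Gapdhs). Without the wild-type vehicle library 10 were as large or larger and 3 smaller by over 1.5 times (Slc39a2, Mt1 and Tsc22d3), and with the 3 h libraries 6 and 20.

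The leptin stratum gave 144 calls with DESeq2, 657 with no filter and 4 to 577 with a library left out, in place of 49; the vehicle stratum gave 360, 1238 and 15 to 1531, in place of 196. The stratum difference gave 7, 63, and 0 with all 14 depleted libraries in the fit (859 at an unadjusted p under 0.05), and 1 to 33 with a library left out. The depleted minus bead difference gave 72 with DESeq2, 11 with limma voom, 279 with no filter, 6 with no replicate block (lysate) and 1 to 59 with a lysate left out. With library totals this difference split into 8 higher and 6 lower calls, in place of 14 and 3. Wild type at 10 h against 3 h gave 345 to 2142 with a library left out, 773 and 1107 without wild-type leptin replicates 2 and 3, and with library totals 1184 higher and 803 lower, in place of 920 and 980. The causes were not tested.

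Among the genes, 1 called value changed sign: Ndufs5-ps was at -0.72 with the 3 h libraries. The other sign changes given here were in genes that had not passed. Pomc was at -0.079 with 14 libraries, -0.085 as the mean of the strata and -2.23 with the 3 h libraries. With the striatal covariate Serpina3n was at 0.07, Gfap at -0.13, Klf9 at -0.0057 and Nr3c2 at -0.11. Serpina3n was at 0.058 with the replicate block. With the 3 h libraries Stat3 was at -0.048 and Pdk4 at 0.08. With length and GC removed Mbp was at 0.014 and Pdk4 at 0.0059, as with limma voom. With 1 library left out the value spanned -1.27 to 1.11 for Pomc, -0.025 to 0.11 for Stat3, -0.22 to 0.12 for Serpina3n, -0.074 to 0.05 for Mbp, -0.40 to 0.39 for Pdk4, -0.02 to 0.18 for Nr3c2 and -0.095 to 0.55 for Angptl4. Pomc was at 1.11 without the wild-type vehicle library and at -1.27 without the ob/ob leptin library. By construction these fits compare the libraries of the leptin stratum and of the vehicle stratum given above, and so add no further test.

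Genotype and sequencing run are one split, each stratum has a group of 1 library, and ob/ob libraries are the shallowest, which limits transcripts of low level such as Ccl17 and Prss41.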
